A study of Mus musculus with 8 samples.

Results

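The 46 genes described here encode the contractile apparatus of the muscle fibre and the machinery that couples its electrical excitation to contraction. They were taken as a list of gene symbols by function, with earlier results of these data known, and are 46 of the 20807 protein-coding genes on the autosomes in the mouse gene annotation. The measurement was acetylation of lysine 56 of histone H3 (H3K56ac), mapped by sequencing of immunoprecipitated chromatin (ChIP-seq) in FACS-sorted, freshly isolated MuSCs, the stem cells that regenerate muscle fibres, from C57BL/6 mice. The study set Control mice against Sirt6mKO mice. The paper calls the control MuSCs of its H3K56ac ChIP-seq wild type. For other experiments with Sirt6mKO mice, it gives floxed littermates without Cre as the control. In Sirt6mKO mice, a floxed Sirt6 allele was deleted by Pax7ICN Cre in the presence of a ROSA26-YFP reporter. Cre was driven by Pax7, so deletion follows the Pax7 lineage as a whole and not the adult stem cell alone, and the labels give no age for either group. For either genotype the labels give 2 replicates of the immunoprecipitate and 2 of input, which is chromatin that was not immunoprecipitated, and so 8 libraries in all.

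The deposited result was a single merged list of 105600 genomic intervals (peaks), with a median width of 974 bp. It names no genotype and no replicate and holds 0 columns of values per sample, so neither depth nor peak height can be read from it, Control and Sirt6mKO were not compared, and no value below has an error between replicates. Intervals given with a share of genes are Wilson 95% intervals, which cover the number of genes only. A peak in the list may come from either genotype or from both. The paper reports more H3K56ac peaks across the genome in Sirt6mKO MuSCs. The shares and widths below therefore cannot be read as those of Control MuSCs alone.

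The sarcomere is the repeating unit of the myofibril, in which thick filaments of myosin pull on thin filaments of actin. Troponin and tropomyosin on the thin filament make this pull depend on calcium, while titin, nebulin, the Z-disc and the M-band hold the filaments in register. At the triad, the voltage sensor of the transverse tubule opens the calcium release channel of the sarcoplasmic reticulum, and a calcium pump then refills the store. Most of these genes are strongly transcribed in adult fibres, a few belong to embryonic or cardiac muscle, and quiescent MuSCs have no sarcomeres.

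A promoter peak was found for 42 of the 46 genes (91.3%, interval 79.7 to 96.6%), against 69.3% of all autosomal coding genes, a difference of 22.0 percentage points. A promoter peak is any peak that overlaps the 3 kb on either side of an annotated transcription start site (TSS) of the gene. The 4 genes without one were Tnnt2, Myh8, Myh6 and Ldb3. The principal TSS, that of the main annotated coding transcript, lay inside a peak for 24 of 46 genes (52.2%, interval 38.1 to 65.9%), against 58.9% of all coding genes, a difference of -6.69 percentage points. The interval holds the value of all coding genes. Among the 42 genes with a promoter peak, the principal TSS lay inside a peak for 24 and outside for 18. Of all coding genes with a promoter peak, 84.9% had it inside one. When only the principal TSS was searched within 3 kb, 37 of 46 genes (80.4%) had a peak, against 66.4%. Where the base of any annotated TSS had to lie in a peak, the shares were 63.0% and 63.5%, and the difference turned. The fibre genes had a median of 5 annotated TSSs, against 3 for all coding genes, which gives them more windows in which a peak can fall, and the part of this in the difference was not tested.

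Promoter sequences of the genes at both ends of the range are shown next, so that the letters can be read beside the peaks. They are RefSeq promoters of build GRCm38.p6, from 250 bases before the start to 50 after it, 5′ to 3′, and 36 of the 46 genes matched an entry. Entries for Actn3, Tnni2, Tcap, Neb, Jph1, Trdn, Myot, Myoz1, Tnnt3 and Myom2 are missing. Capitals mark matches on either strand to the E-box (CANNTG, the site of MyoD family factors), MCAT (CATTCC, the site of TEAD factors), MEF2 and CArG (the site of serum response factor) motifs. The first set holds the promoters of the 3 genes with the widest promoter peaks, and the start of each shown promoter lay inside a peak. For Myom1 and Tpm1 this was not the widest peak but a narrower one over the principal TSS, of 1264 bp and 3408 bp. For Tpm3 the start shown is an internal one that lies inside its widest peak, and not the principal TSS, which lay outside any peak.
Myom1 (chr17:71019307-71019606, plus strand): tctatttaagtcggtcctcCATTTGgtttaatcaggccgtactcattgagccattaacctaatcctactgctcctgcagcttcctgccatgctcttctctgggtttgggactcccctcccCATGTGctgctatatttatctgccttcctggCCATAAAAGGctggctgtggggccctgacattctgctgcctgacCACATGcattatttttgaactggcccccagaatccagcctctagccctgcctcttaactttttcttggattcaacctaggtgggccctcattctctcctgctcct
Tpm3 (chr3:90079271-90079570, plus strand): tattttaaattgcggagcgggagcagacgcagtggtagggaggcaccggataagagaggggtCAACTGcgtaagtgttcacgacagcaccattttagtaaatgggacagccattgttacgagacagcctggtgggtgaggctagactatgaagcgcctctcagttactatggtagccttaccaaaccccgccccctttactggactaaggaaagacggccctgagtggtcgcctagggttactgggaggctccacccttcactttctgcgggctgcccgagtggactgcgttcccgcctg
Tpm1 (chr9:67049164-67049463, minus strand): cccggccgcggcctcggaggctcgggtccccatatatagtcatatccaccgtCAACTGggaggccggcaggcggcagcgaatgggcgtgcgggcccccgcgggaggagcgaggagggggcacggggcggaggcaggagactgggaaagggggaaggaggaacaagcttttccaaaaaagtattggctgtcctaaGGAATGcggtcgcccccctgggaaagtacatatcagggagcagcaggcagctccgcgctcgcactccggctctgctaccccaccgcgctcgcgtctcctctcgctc

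The second set holds the promoters of the 4 genes without a promoter peak. From the starts of these promoters the nearest peak was 17521 bp away for Tnnt2, 10483 bp for Myh8, 7673 bp for Myh6 and 4633 bp for Ldb3.
Tnnt2 (chr1:135836739-135837038, plus strand): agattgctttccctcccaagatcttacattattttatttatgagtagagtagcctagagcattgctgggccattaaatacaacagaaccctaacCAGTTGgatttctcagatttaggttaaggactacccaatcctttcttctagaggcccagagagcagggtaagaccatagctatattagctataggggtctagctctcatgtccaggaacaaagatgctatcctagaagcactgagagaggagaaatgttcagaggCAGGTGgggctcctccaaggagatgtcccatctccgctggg
Myh8 (chr11:67276874-67277173, plus strand): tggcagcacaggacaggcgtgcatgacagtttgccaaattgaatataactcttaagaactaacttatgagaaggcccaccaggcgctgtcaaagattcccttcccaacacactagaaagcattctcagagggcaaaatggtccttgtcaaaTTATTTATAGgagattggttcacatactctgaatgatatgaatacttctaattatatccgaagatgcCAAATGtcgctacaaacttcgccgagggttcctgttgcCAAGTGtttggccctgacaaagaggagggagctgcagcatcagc
Myh6 (chr14:54966558-54966857, minus strand): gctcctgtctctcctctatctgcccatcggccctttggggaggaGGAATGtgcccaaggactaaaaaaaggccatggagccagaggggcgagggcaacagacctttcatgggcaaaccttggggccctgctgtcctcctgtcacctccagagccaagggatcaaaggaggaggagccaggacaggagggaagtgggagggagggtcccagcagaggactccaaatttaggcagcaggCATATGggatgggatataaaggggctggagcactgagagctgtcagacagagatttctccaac
Ldb3 (chr14:34588632-34588931, minus strand): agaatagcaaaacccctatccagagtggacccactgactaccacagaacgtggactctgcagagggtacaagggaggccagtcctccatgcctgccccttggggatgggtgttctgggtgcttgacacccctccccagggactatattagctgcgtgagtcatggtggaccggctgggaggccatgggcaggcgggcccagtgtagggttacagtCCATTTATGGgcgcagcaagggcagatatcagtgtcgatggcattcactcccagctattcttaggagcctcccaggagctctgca

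Both sets held E-boxes, with 3 in the Myom1 promoter and 1 each in those of Tpm3 and Tpm1, and with 2 each in those of Tnnt2 and Myh8, 1 in that of Myh6 and 0 in that of Ldb3. A CArG match was present in the promoters of Myom1 and Ldb3, a MEF2 match in that of Myh8, and an MCAT match in those of Tpm1 and Myh6. Over the 36 matched promoters, taken at the RefSeq start nearest to the principal TSS, an E-box was present in 32 (88.9%), against 68.0% of the 15687 promoters of the same length in the table. MCAT was present in 13 of 36 (36.1%), against 13.1%. A MEF2 match was present in 5 (13.9%, against 2.72%) and a CArG match in 6 (16.7%, against 1.4%). The TATA letters TATAAA, which can overlap a MEF2 match, were present in 12 (33.3%, against 12.9%). The 6 promoters with a CArG match were those of Acta1, Actc1, Ldb3, Myh4, Myl3 and Myom1. These matches describe the letters of the windows, and for 4 genes (Myl1, Myl2, Tnnt2 and Ttn) the RefSeq start lay more than 1 kb from the principal TSS.

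The myosin heavy chains, the motors of the thick filament, differed among themselves. Of the 7 genes, 5 had a promoter peak and 3 had the principal TSS inside one. Myh1, the fast IIx isoform, had a peak of 4349 bp over its start (chr11:67197604-67201952), which ran from -2507 to 1841 bp relative to the TSS, and 19.8% of the gene lay in peaks. Myh2, the IIa isoform, had a peak of 3944 bp upstream (chr11:67165365-67169308), while the nearest peak to its principal TSS ended 1088 bp before it. Myh4, the IIb isoform, had a peak of 1024 bp (chr11:67237105-67238128), which held its start and little else, since 0.446% of the gene was covered. All 3 adult fast isoforms therefore had a promoter peak, but the principal start of Myh2 was not covered. Myh7, the slow isoform, had a peak of 3304 bp over its start (chr14:54992613-54995916), and a peak of 611 bp in its exon 34 lay near Gm17428. Its neighbour Myh6, the cardiac alpha isoform, had no promoter peak, and the nearest peak lay 7639 bp from its principal TSS. The developmental isoforms had no peak over the principal TSS, and 2.07% of Myh3 and 2.12% of Myh8 lay in peaks, more than of Myh4. Myh3, the embryonic isoform, had the narrowest promoter peak of the list, 496 bp, and it began 1448 bp after the TSS. Myh8, the perinatal isoform, had none within 10483 bp of its start.

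**Figure D1:**
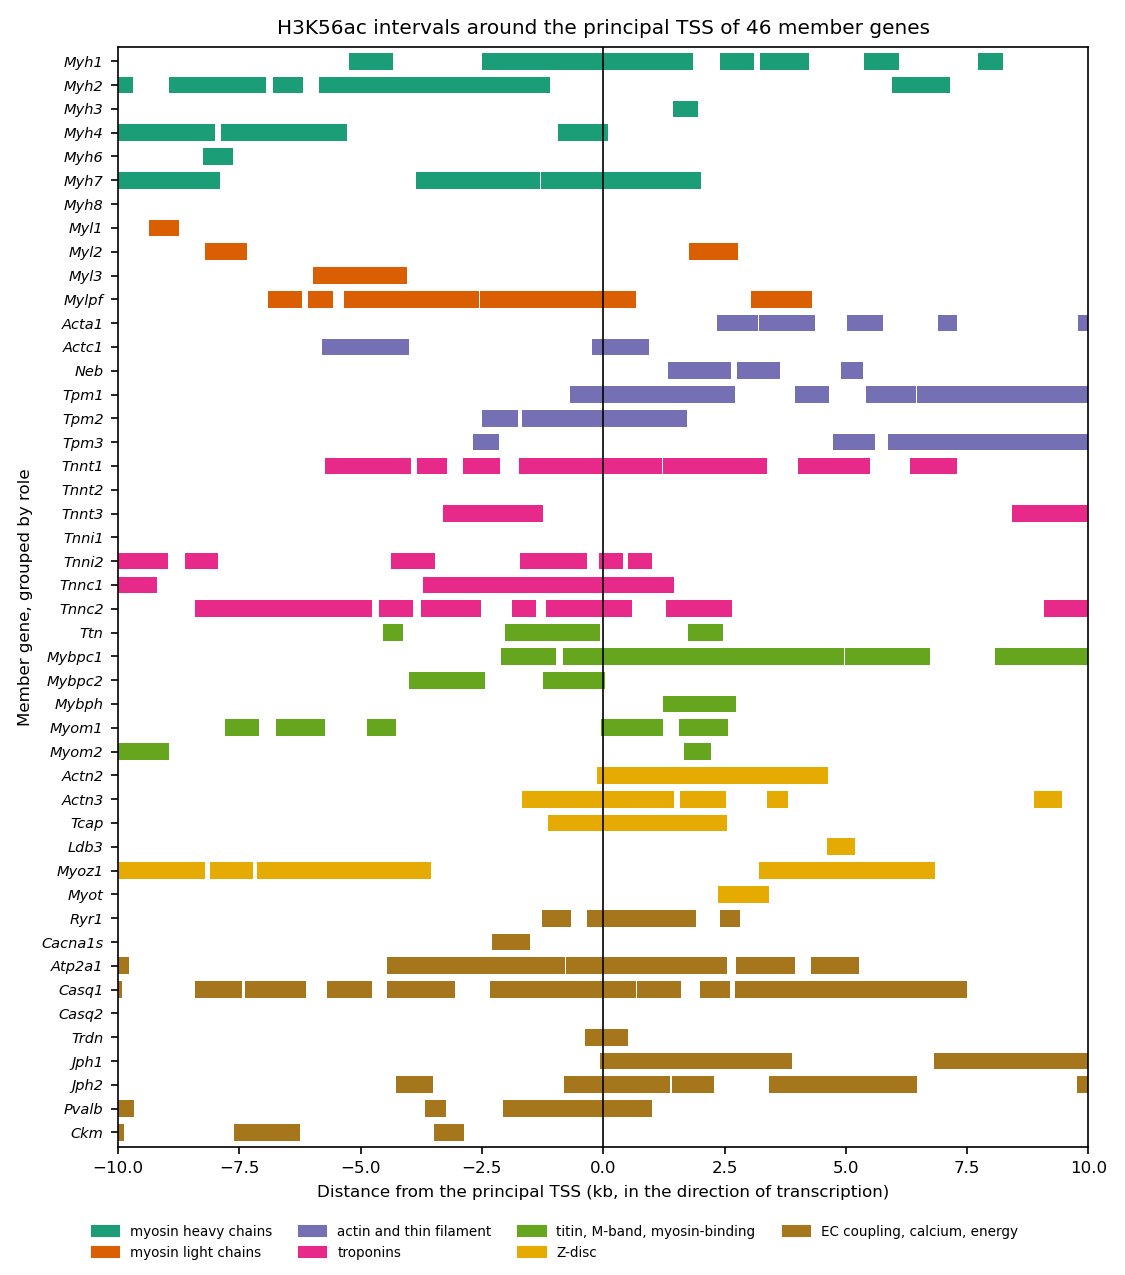
Peaks (coloured bars) within 10 kb of the principal TSS of each of the 46 genes, with distance in kb in the direction of transcription on the horizontal axis and one gene per row, coloured by role. Bars cross the vertical line at 0 for 24 genes, and for Myh8, Tnnt2, Tnni1 and Casq2 the window holds no peak.

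In the skeletal heavy chain cluster on chromosome 11, the peaks lay largely between the genes. The 68.7 kb between Myh3 and Myh2 held 20 peaks, which covered 41.0% of the interval. The short gap of 2.53 kb between Myh2 and Myh1 was covered to 96.6% by the peak over the Myh1 start. Between Myh1 and Myh4, 57.3% of 13.5 kb was covered by 4 peaks. Coverage was low over the next gap, where 1 peak covered 3.92% of the 16.7 kb between Myh4 and Myh8. Past Myh8, a peak of 5137 bp covered 39.4% of the 13.0 kb before Myh13, the extraocular isoform, which is not on the list.

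**Figure D2:**
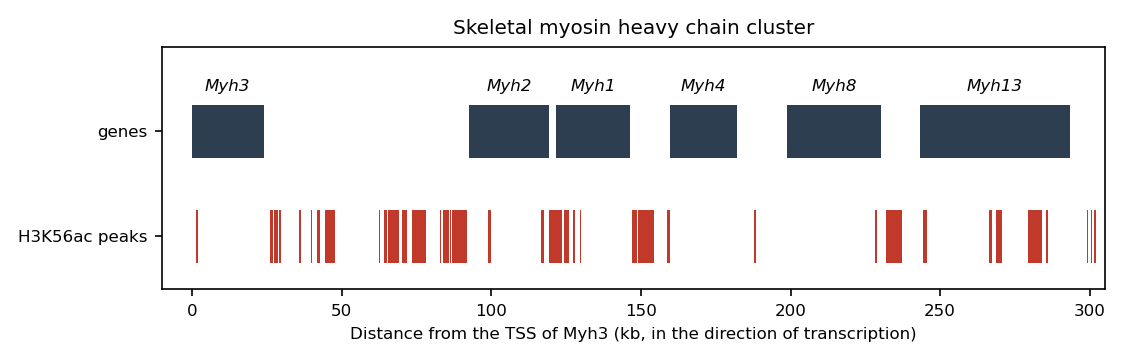
Genes (upper row) and peaks (lower row) of the skeletal myosin heavy chain cluster, by distance in kb from the TSS of Myh3 in the direction of transcription. Peaks are dense between Myh3 and Myh1 (20 peaks in the first gap), and 1 peak lies between Myh4 and Myh8.

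All 4 myosin light chain genes, whose products bind the neck of the heavy chain, had a promoter peak, but the principal TSS was inside one only for Mylpf. Mylpf, the fast regulatory light chain, had a peak of 3211 bp (chr7:127209074-127212284), and 62.3% of the gene lay in peaks, although the same peak lay within 3 kb of starts of Sept1 and Tbc1d10b. The other light chain peaks were narrower. Myl1, the fast essential light chain, had a peak of 621 bp, 432 bp from another annotated start and 8737 bp from the principal TSS. Myl2, the slow regulatory light chain, had a peak of 999 bp over exon 3 of the principal transcript. Myl3, the slow essential light chain, had a widest promoter peak of 1463 bp that lay near Pth1r, 19303 bp before its principal TSS, and its nearest peak was 4047 bp away.

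All 6 actin and thin filament genes had a promoter peak, and 3 had the principal TSS inside one. Acta1, the skeletal alpha actin, had a single promoter peak of 854 bp over exons 6 to 7, at the 3′ end of a gene of 2983 bp, and none over its start. Actc1, the cardiac alpha actin that is also made in developing muscle, had a peak of 1182 bp that held its start. Neb, which encodes nebulin, the ruler of the thin filament, had a peak of 4094 bp near an alternative start, and its principal TSS lay 1329 bp from the nearest peak. The tropomyosins, which lie along the actin filament, differed in width. Tpm3, the slow tropomyosin gene, had a peak of 8087 bp (chr3:90078531-90086617) over an internal alternative start, while its principal TSS lay 2152 bp from the nearest peak. Tpm1 had a peak of 7700 bp inside the gene (chr9:67035235-67042934) and a second of 3408 bp over its principal TSS. Tpm2 had a peak of 3396 bp over its principal TSS. The widest peaks at Tpm1 and Tpm3 thus lay at internal starts of the gene, as annotated.

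Of the 7 troponin genes, the calcium switch of the thin filament, 6 had a promoter peak and 4 had the principal TSS inside one. Tnnc1, the slow and cardiac troponin C, had a peak of 5159 bp over its start (chr14:31204605-31209763), which also lay within 3 kb of Nisch. Tnnc2, the fast troponin C, had 5 promoter peaks, the widest of 1361 bp and another near Snx21, and 75.1% of the gene was covered. Tnnt1, the slow troponin T, had 6 promoter peaks with a widest of 2942 bp, which lay also within 3 kb of Tnni3, and 52.7% of the gene was covered. Tnni2, the fast troponin I, had a peak of 497 bp over its start, one of 1393 bp before it, and Syt8 as a neighbour within 3 kb of both. At the other troponin genes the principal TSS lay outside any peak. Tnnt3, the fast troponin T, had a peak of 2058 bp that ended 1250 bp before its start. Tnni1, the slow troponin I, had a peak of 1950 bp near an alternative start, but its principal TSS was 18788 bp from any peak. Tnnt2, the cardiac and embryonic troponin T that lies beyond Tnni1 on chromosome 1, had its nearest peak 21407 bp from the principal TSS. Tnni1 and Tnnt2 were the genes of the list with 0% of their length in peaks.

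Among titin and the M-band and myosin-binding proteins, 6 of 6 genes had a promoter peak and 3 had the principal TSS inside one. Ttn, which encodes the elastic filament between Z-disc and M-band, had a peak of 1950 bp that stopped 76 bp before the principal TSS, and 1.37% of its 278.6 kb was covered. In the 10 kb after the principal TSS, 7.38% was covered, against 1.15% of the rest of the gene, which includes that peak of 1950 bp. Mybpc1, the myosin-binding protein C named for slow muscle, had a peak of 5797 bp over its start (chr10:88600185-88605981). Mybpc2, the fast form, had 1559 bp near Spib and a peak of 1296 bp at its own start. Mybph, the related protein H, had a peak of 1518 bp that began 1224 bp after the start. The M-band genes stood near both ends of the list. Myom1, myomesin 1, had the widest promoter peak of all, 18581 bp (chr17:70986316-71004896), but this peak lay at the nonmuscle light chain genes Myl12a and Myl12b and reached only an alternative start of Myom1. Over the principal TSS of Myom1 the peak was 1264 bp wide, and 26 peaks covered 29.8% of the gene. Myom2 had 561 bp, and this peak began 1670 bp after the principal TSS.

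Of the 6 Z-disc genes, which anchor the thin filaments, 5 had a promoter peak and 3 had the principal TSS inside one. Actn2, alpha-actinin 2, had a peak of 4778 bp from its start into the gene (chr13:12336121-12340898). Actn3, the fast fibre alpha-actinin, had 3139 bp, within 3 kb of Zdhhc24. Tcap, which encodes the titin cap protein telethonin, was covered over its whole length (100%) by a peak of 3687 bp that also lay near Pnmt. Less was found at the starts of the other Z-disc genes. Myoz1, a calcineurin-binding protein, had a peak of 3621 bp at an alternative start, and its principal TSS was 3216 bp from it. Myot, myotilin, had a peak of 1051 bp that began 2371 bp after the start. Ldb3, the Z-disc protein also called cypher, had no promoter peak, although 14 peaks covered 27.0% of the gene, the widest of 3939 bp over exons 6 to 7.

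All 10 genes of excitation-contraction coupling, calcium handling and energy supply had a promoter peak, and 7 had the principal TSS inside one. Ryr1, the calcium release channel, had a peak of 2259 bp over its start, and its widest promoter peak, 6002 bp, lay far inside the gene over exons 84 to 88 near an alternative start (chr7:29038089-29044090). Cacna1s, the voltage sensor that opens Ryr1, had a narrow peak of 784 bp that ended 1519 bp before the principal TSS and lay within 3 kb of Ascl5. Trdn, which encodes triadin, an anchor between the channel and the calcium store, had a peak of 892 bp over its start and a peak of 9528 bp over exons 11 to 12. The junctophilins, which hold the triad membranes together, were covered at many places. Jph1 had 14 peaks, of which that over the start was 3965 bp wide, and Jph2 had 13 peaks, of which that over the start was 2187 bp wide. The calsequestrins gave unlike values. Casq1, the fast calsequestrin that binds calcium in the store, had 4 promoter peaks, the widest of 4769 bp, and 70.0% of the gene was covered. Casq2, the slow and cardiac calsequestrin, had 2 peaks in the gene, of which that of 800 bp, 35676 bp after the principal TSS, counted as a promoter peak because it lay 2924 bp from an internal start. Atp2a1, the fast calcium pump, had a peak of 3324 bp over its start next to one of 3684 bp that lay also near Sh2b1, and Pvalb, the calcium buffer of fast fibres, had 2185 bp over its start. Ckm, the muscle creatine kinase that regenerates ATP, had a peak of 624 bp that ended 2870 bp before the principal TSS and a wider one, 1352 bp, that lay near Klc3.

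By the fibre type in which the genes are best known, all 13 fast genes had a promoter peak and 10 had the principal TSS inside one, with a median widest peak of 2185 bp. All 8 slow genes had a promoter peak and 3 had the principal TSS inside one, with a median of 2446 bp. Mybpc1, although named for slow muscle, was not counted among them. Of the 5 developmental and cardiac genes (Myh3, Myh8, Myh6, Tnnt2 and Actc1), 2 had a promoter peak, and only Actc1 had its principal TSS inside one. Of all coding genes, 69.3% had a promoter peak and 58.9% had the principal TSS inside a peak. The slow genes had a median of 7 annotated TSSs and the fast genes 3. The fibre type groups are small, were formed from textbook knowledge, and their difference was not tested.

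Over the 42 genes with one, the widest promoter peak had a median of 2302 bp (interval of the median 1518 to 3621 bp), and over the 14418 coding genes with one 3488 bp, a ratio of 0.66. The interval of the median holds the value of all coding genes, so the widths of the fibre genes were not separable from it. Coding genes with a CpG-poor promoter, the class defined further on that holds most fibre genes, had a median of 2773 bp. When peaks less than 1 kb apart were joined, the medians were 3654 bp for the fibre genes and 4356 bp for all coding genes. The range ran from 496 bp at Myh3 to 18581 bp at Myom1, and 15 genes lay above the median of all coding genes and 27 below it. A promoter peak of at least 5 kb was found for 6 of 46 genes (13.0%), against 17.3%. These were Myom1, Tpm3, Tpm1, Ryr1, Mybpc1 and Tnnc1, and only at Mybpc1 and Tnnc1 did the wide peak hold the principal TSS. The genes whose principal TSS was inside a peak had a median widest peak of 3350 bp, and those with a promoter peak elsewhere had 1407.5 bp.

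**Figure D3:**
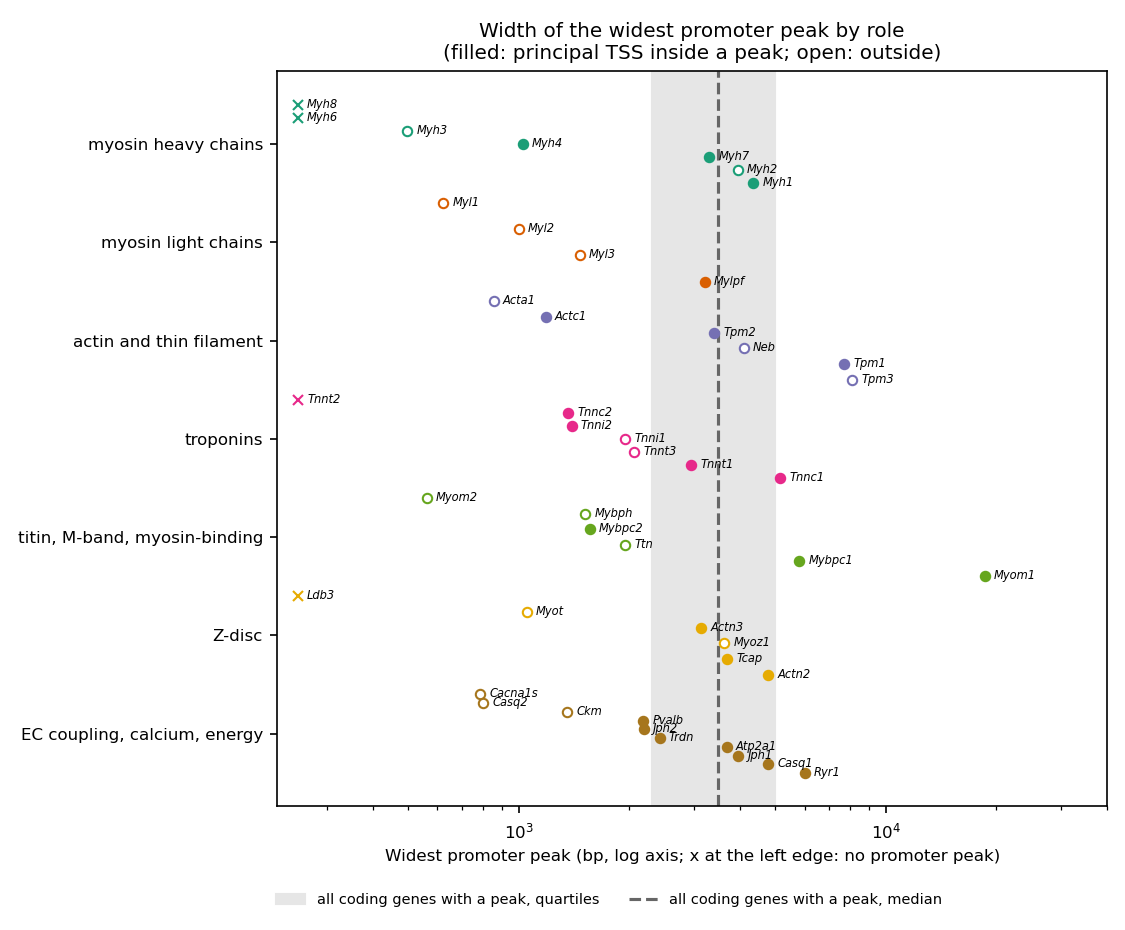
Width of the widest promoter peak (bp, log axis) for each gene, by role, where filled points have the principal TSS inside a peak, open points do not and crosses at the left edge mark the 4 genes without a promoter peak. The dashed line is the median of all coding genes with a promoter peak (3488 bp) and the grey band their quartiles (2304 to 5000.5 bp), and 27 genes lie left of the line.

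A promoter peak can belong to a neighbour. When peaks within 3 kb of the start of another coding gene were left out, 36 of 46 genes (78.3%) kept a promoter peak, against 54.6% of all coding genes. The 6 that lost theirs were Myl3, Mylpf, Tnni2, Tnnc1, Tcap and Cacna1s. At these genes the list does not say to which promoter a peak belongs.

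Of the 22 genes whose principal TSS was outside a peak, 18 had a promoter peak elsewhere. The nearest peak lay upstream for 11 and downstream for 11, at a median distance of 2356.5 bp, and within 3 kb for 13 of them. The distances ran from 76 bp at Ttn to 35676 bp at Casq2. Across positions, the share of fibre genes in a peak was below that of all coding genes at the TSS and crossed it several times further out. At 1000 bp before the TSS it was 37.0%, against 45.0% for all coding genes. At 2500 bp after the TSS the order was the reverse, 39.1% against 26.2%, and so it was at 5000 bp before the TSS, 19.6% against 11.5%. At 7500 bp after the TSS it was lower again, 6.52% against 12.6%.

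**Figure D4:**
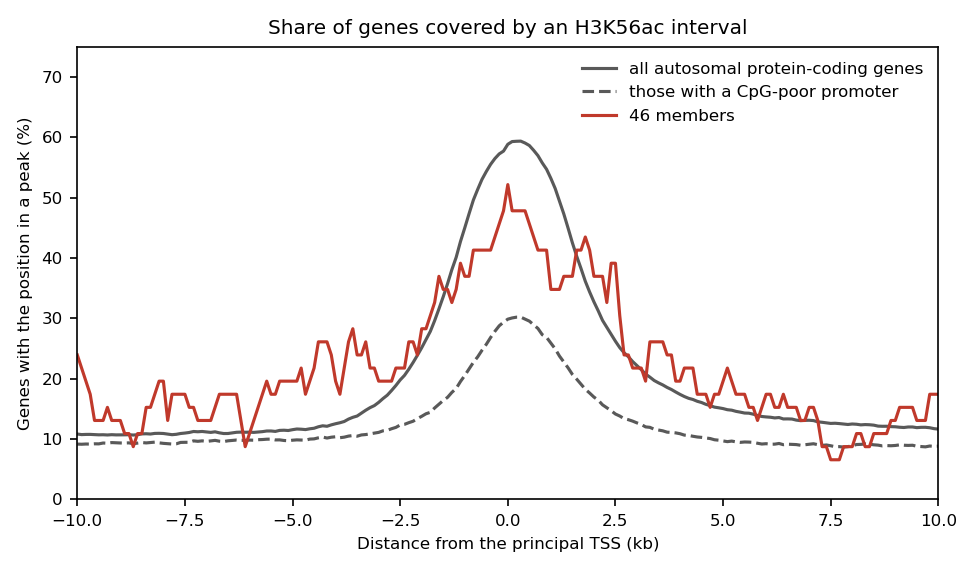
Share of genes (%) for which a position lies in a peak, by distance from the principal TSS in kb, for the 46 genes, for all autosomal coding genes and for those with a CpG-poor promoter. At the TSS the shares are 52.2%, 58.9% and 29.8%, and the line of the 46 genes moves in steps of single genes.

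Most of the fibre genes have promoters that are poor in CpG, the dinucleotide whose clusters mark the starts of widely expressed genes. The median ratio of observed to expected CpG in the 300 bases around the principal TSS was 0.241, against 0.568 over all coding genes, and 41 of 46 genes (89.1%) were below 0.6, against 52.3%. Among coding genes with such CpG-poor promoters, 46.2% had a promoter peak, and of the fibre genes with CpG-poor promoters 37 of 41 (90.2%, interval 77.5 to 96.1%) had one. The CpG-poor fibre genes had medians of 5 annotated TSSs and 23.0 kb, against 2 and 11.7 kb for CpG-poor coding genes. The part of this in the difference was not tested, and olfactory and vomeronasal receptor genes were not left out here. The principal TSS itself was inside a peak for 19 of these 41 (46.3%), against 29.8%. In the lowest range of the ratio, below 0.2, a promoter peak was found for 16 of 17 fibre genes and for 25.2% of 4715 coding genes. The CpG-rich genes of the list were Tpm1, Tpm2, Mybpc1, Jph1 and Pvalb, and 5 of 5 had a promoter peak, against 94.5% of CpG-rich coding genes.

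**Figure D5:**
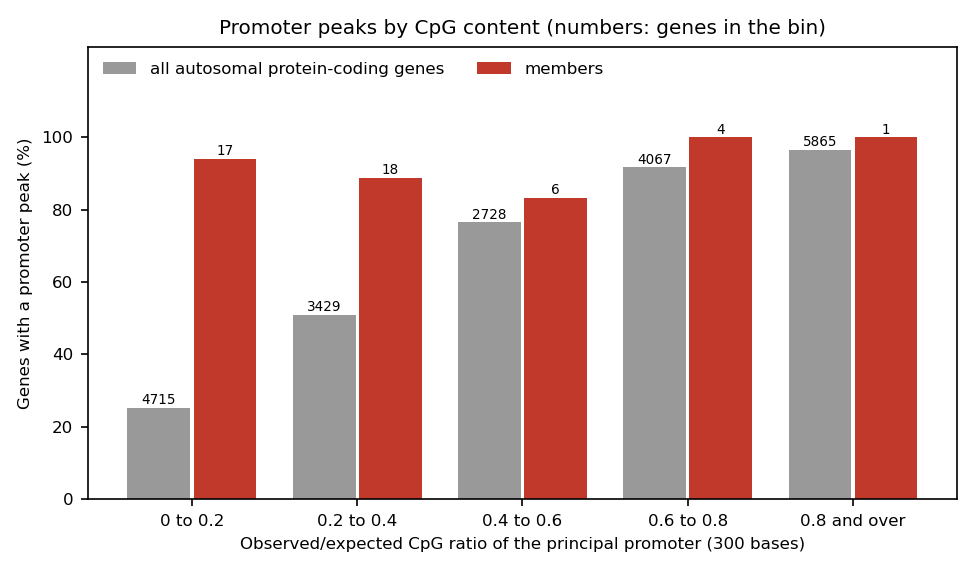
Share of genes with a promoter peak (%) by the observed to expected CpG ratio of the principal promoter, for all autosomal coding genes (grey) and the listed genes (red), with the number of genes above each bar. The grey bars rise from 25.2% to 96.5%, and the red bars lie between 83.3% and 100%, the last on 1 gene.

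The median covered share of the gene was 17.0% (interval of the median 7.98 to 23.3%), against 8.45%, a ratio of 2.01, with the latter value inside the interval, and 29 of 46 genes lay above the median of all coding genes. Coding genes that had a promoter peak stood at 16.2%, close to the value of the list. The fibre genes were also longer, with a median of 23.5 kb against 17.6 kb. Coverage was highest in the short genes Tcap (100%), Tnnc2 (75.1%), Casq1 (70.0%) and Mylpf (62.3%). Other short genes had less, such as Tnni2 (34.2%), Acta1 (21.5%) and Actc1 (18.9%). In the giant genes it was low. Neb had 26.5% of the 10 kb after its principal TSS covered and 1.77% of the rest of the gene, and Trdn had 5.11% and 3.97%. For Neb this rest includes the peak of 4094 bp near an alternative start, which lies upstream of the principal TSS.

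Genes related by descent or by place gave other values. The 12 widely expressed relatives of the listed genes, such as nonmuscle actins and myosins, all had the principal TSS inside a peak, with a median widest promoter peak of 5758.5 bp. The widest were Actn4 (24151 bp) and the shared peak of Myl12a and Myl12b (18581 bp). Of 10 cardiac and smooth muscle relatives, 8 had a promoter peak and 3 had the principal TSS inside one, with the widest at Acta2 (8640 bp), Myl4 (6672 bp) and Tnni3 (2942 bp). Of 38 other genes of the sarcomere, the triad and fibre metabolism, 28 (73.7%) had a promoter peak, against 69.3% of all coding genes. The principal TSS was inside a peak for 18 of them (47.4%), against 58.9%. The median of the widest promoter peak was 3673.5 bp, and for 11 genes it was 5 kb or more. Their widest peaks were at Mb (25949 bp), the oxygen store myoglobin, at Lmod2 (24412 bp), a nucleator of actin, and at Asph (10881 bp), the gene of junctin. The difference between the 73.7% of these genes and the 91.3% of the 46 listed genes was not tested. The 10 myogenic regulators all had the principal TSS inside a peak, with a median of 6437 bp. Among 49 keratins, a family of structural genes of epithelia, 7 (14.3%) had a promoter peak.

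The labelled cell type was checked by its markers. All 8 MuSC markers, among them Pax7, Myf5 and Calcr, had the principal TSS inside a peak and a promoter peak of at least 5 kb, with a median of 12834.5 bp. Of all coding genes, 58.9% had the former and 17.3% the latter. A promoter peak was also found at 3 of 4 endothelial, 3 of 4 fibro-adipogenic, 1 of 4 immune and 3 of 3 neural and Schwann markers, against 69.3% of all coding genes. In the same order, the principal TSS was inside a peak for 2 of 4, 2 of 4, 0 of 4 and 2 of 3. A promoter peak of at least 5 kb was found for 1 of 4, 2 of 4, 0 of 4 and 0 of 3. The widest of these was at the endothelial marker Tek (12975 bp), so wide peaks were not limited to MuSC markers. The listed genes define fibres and not stem cells, and the part of other cells in their peaks was not tested. Per the study's methods, cells positive for Sca1, CD45 or CD31 were depleted and satellite cells were then sorted by Integrin-a7 and CD34 or by a reporter, and the sorted cells were enriched and not pure.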

How the data were processed

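H3K56ac ChIP-seq was measured in 8 libraries of MuSCs in 4 groups of 2 replicates. The authors trimmed reads with Trim Galore, aligned them uniquely to mm10 with bowtie, removed duplicates with Picard, called peaks with MACS2, removed blacklisted regions and merged overlapping peaks with GenomicRanges, so that widths are those of the union. FastQC, SAMtools and deepTools are also named in the submitters' processing notes. The deposited list holds interval positions only, with 0 columns of values per sample, so no p-value, fold change or error between replicates was computed. Read totals of the libraries are stated in the study's reporting summary but cannot be tied to single intervals. Keeping only unique alignments removes reads from repeats and near-identical copies.

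Genes and TSSs were those of GENCODE vM21 on GRCm38, the same build as mm10, and positions count from 1. A promoter peak overlapped 3 kb on either side of an annotated TSS by at least 1 bp. The principal TSS was that of the APPRIS principal coding transcript with the lowest transcript number. The covered share is the part of the gene record inside peaks, and exons are those of the principal transcript. The CpG ratio was computed from 250 bases before to 50 after the principal TSS. The work was done in Python 3.11.15 with pandas 2.3.3 and scipy 1.17.1, and the interval functions, but not the motif search, were tested on simulated data. All 46 members are named, and of the other lists at most the 3 genes with the widest promoter peak. Sequences are shown for the 3 widest and up to 4 without a promoter peak, chromosome 18 left out. The members and lists were chosen with earlier results of these data known, so no set test was run. Alternatives changed the window, the TSS set, the minimum width, joining of peaks, the treatment of neighbours and the CpG limit. Counting the principal TSS alone was added after seeing the data.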

Additional observations from a re-analysis of the deposited data

How the results depend on the processing

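The share of genes with a promoter peak, its difference from all coding genes, the median widest peak, the median covered share and the share among CpG-poor promoters were recomputed in 28 values, of which 20 stayed within the interval of the value given. With a window of 1 kb the share with a promoter peak was 76.1% (all coding genes 66.8%), the difference 9.28 percentage points, and the share among CpG-poor promoters 73.2% (42.0%). Where the base of a TSS itself had to lie in a peak, the share was 63.0% (63.5%) and the difference turned to -0.502 percentage points. Peaks of at least 1000 bp gave 76.1% (64.5%), and leaving out peaks near another coding gene gave 78.3% (54.6%). Joining peaks less than 1 kb apart raised the median width to 3654 bp (4356 bp), against an interval of 1518 to 3621 bp. Leaving out olfactory and vomeronasal receptor genes from the background gave a difference of 16.9 percentage points. No paired analysis was possible because intervals of all libraries were merged into 1 list, and for that reason no replicate could be left out and the effect of depth could not be examined.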
